A study of Mus musculus with 4 samples.

Results

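The BCL2 family, the caspases with their regulators, and p53 with its target genes decide in mouse cells whether mitochondrial apoptosis starts. A list of 39 such genes was taken by gene symbol from the 20555 genes of a deposited table of mouse mammary tumour RNA-seq, and all 39 were found there. The list holds 6 survival members of the BCL2 family, 11 death members (3 effectors and 8 BH3-only genes), Bcl2l14, whose role is debated, 5 caspases, 2 caspase activators, 3 inhibitor of apoptosis (IAP) genes, Trp53 and its partner Mdm4, and 9 p53 target genes. The 4 bulk tumour libraries fell into 2 groups of 2. MYC-PyMT tumours came from mice of the genotype S100a8-creRosa26-LSL-MYCPyMT, in which Cre recombinase driven by S100a8, a gene active mainly in neutrophils, opens a MYC allele at the Rosa26 locus by deleting a stop cassette. Control-PyMT tumours carry the PyMT genotype label only. PyMT, polyoma virus middle T antigen, is shared by both groups and causes the mammary tumours. The labels give neither age, nor sex, nor whether a library stands for 1 mouse or several, so p-values reflect only how far these libraries vary, variation that could be technical.

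In the mitochondrial pathway of apoptosis, BAX and BAK permeabilise the outer mitochondrial membrane, survival proteins such as BCL2, BCL-XL and MCL1 hold them in check, and BH3-only proteins either block the survival proteins or activate the effectors. Cytochrome c released from mitochondria assembles with APAF1 into the apoptosome, which activates caspase 9 and through it the executioner caspases, while IAP proteins restrain caspases. The transcription factor p53 induces several of these genes, Bax, Bbc3 and Pmaip1 among them, along with genes for cell cycle arrest, metabolism and its own inhibitor MDM2. Release of stored proteins and cleavage of caspases do not show in RNA, so the values below are transcript levels only.

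Values are scaled counts, the authors' read counts divided by 1 size factor per library, without correction for gene length. Libraries held between 31783846 and 34190913 reads, and 38 of the 39 genes had more than 50 reads in every library, Hrk being the exception. Changes are MYC-PyMT minus Control-PyMT on the scale of log2(scaled count + 1), tested by limma over 16725 genes with p-values adjusted by Benjamini-Hochberg and called at 0.05.

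Markers of cell types differed between the groups in both directions. Beside the counts that follow stand the shares of all tested genes, 23.3% higher and 24.6% lower. Lists near or below these shares were fibroblasts (25% higher and 25% lower), macrophages and monocytes (20% and 10%), B and plasma cells (20% and 20%) and adipocytes (16.7% and 16.7%). Luminal epithelial markers were present, Krt8 at 22210.5 and 28747 scaled counts in MYC-PyMT and 28743 and 27667 in Control-PyMT, but 7 of the 12 fell and none rose. Among these were the hormone receptor genes Pgr (11.1 and 3.30 scaled counts in MYC-PyMT and 1645 and 1749 in Control-PyMT) and Esr1 (101 and 125 scaled counts in MYC-PyMT and 776 and 794 in Control-PyMT) and the pioneer factor gene Foxa1 (45.3 and 24.2 scaled counts in MYC-PyMT and 952 and 1412 in Control-PyMT). Of 12 tested neutrophil markers 8 rose, Prtn3 (1106 and 1685 scaled counts in MYC-PyMT and 165 and 206 in Control-PyMT) and Ngp (81.5 and 89.0 scaled counts in MYC-PyMT and 3.74 and 4.25 in Control-PyMT) among them, and Ltf fell, while S100a8 itself did not pass (1564 and 2524 scaled counts in MYC-PyMT and 2338 and 639 in Control-PyMT). Cxcr2 and Csf3r did not pass either. The 13 neutrophil markers analysed summed to 12013 and 12776 in MYC-PyMT, of which Ltf gave 7265 and 6018. In Control-PyMT they summed to 35226 and 22070, of which Ltf gave 31535 and 20550. Of 12 tested T and NK cell markers 10 fell and Cd4 rose. All 14 listed summed to 276 and 319.8 scaled counts in MYC-PyMT, of which Cd4 gave 129.8 and 141, against 714 and 781 in Control-PyMT, of which Cd4 gave 45.8 and 39.9. Basal and myoepithelial markers fell in 5 of 8 cases and Krt14 rose, with sums of 11423 and 25330 in MYC-PyMT and 41416 and 40899 in Control-PyMT. Keratinocyte and hair markers fell in 8 of 9 tested cases, with sums over all 10 listed of 173 and 271 in MYC-PyMT, where Krt25 was at 0 in both libraries, and of 4101 and 2140.4 in Control-PyMT. Of 8 endothelial markers 4 were higher by the test and 1 lower, macrophage and monocyte markers rose in 2 of 10 and fell in 1, and fibroblast markers rose in 2 of 8 and fell in 2. Dendritic cell markers fell in 3 of 7 tested cases and rose in none, while 1 of 5 tested B and plasma cell markers and 1 of 6 adipocyte markers moved in each direction. In bulk tissue, fewer cells of a type and less RNA per cell cannot be told apart, and the part of these markers in the results below was not tested.

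Of the 39 genes, 9 rose and 11 fell in MYC-PyMT, while 19 did not pass the test. That is 23.1% higher and 28.2% lower, beside 23.3% higher and 24.6% lower (47.9% in either direction) among all tested genes, so the share of changed genes was near that of the whole table. The 2 groups of values did not overlap for 27 of the 39, or 69.2%, beside 75.7% of all tested genes. The counts by role were as follows. No survival gene rose and 2 of 6 fell, at a median log2 change of -0.05. Among death genes 5 of 11 rose and 1 fell, at a median of 0.20. None of the 10 caspases and regulators rose and 5 fell, at a median of -0.62. Of the p53 targets 3 of 9 rose and 1 fell, at a median of 0.42. The median of all tested genes was -0.02. Without MYC-PyMT replicate 2 the p53 target median was -0.12, opposite in sign, so that sign rested on this library. The death gene median was then 0.032, but it was 0.40 without Control-PyMT replicate 1 and 0.097 with upper-quartile scaling. On leaving out any library, fewer genes passed on the list and over all tested genes alike.

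**Figure D1:**
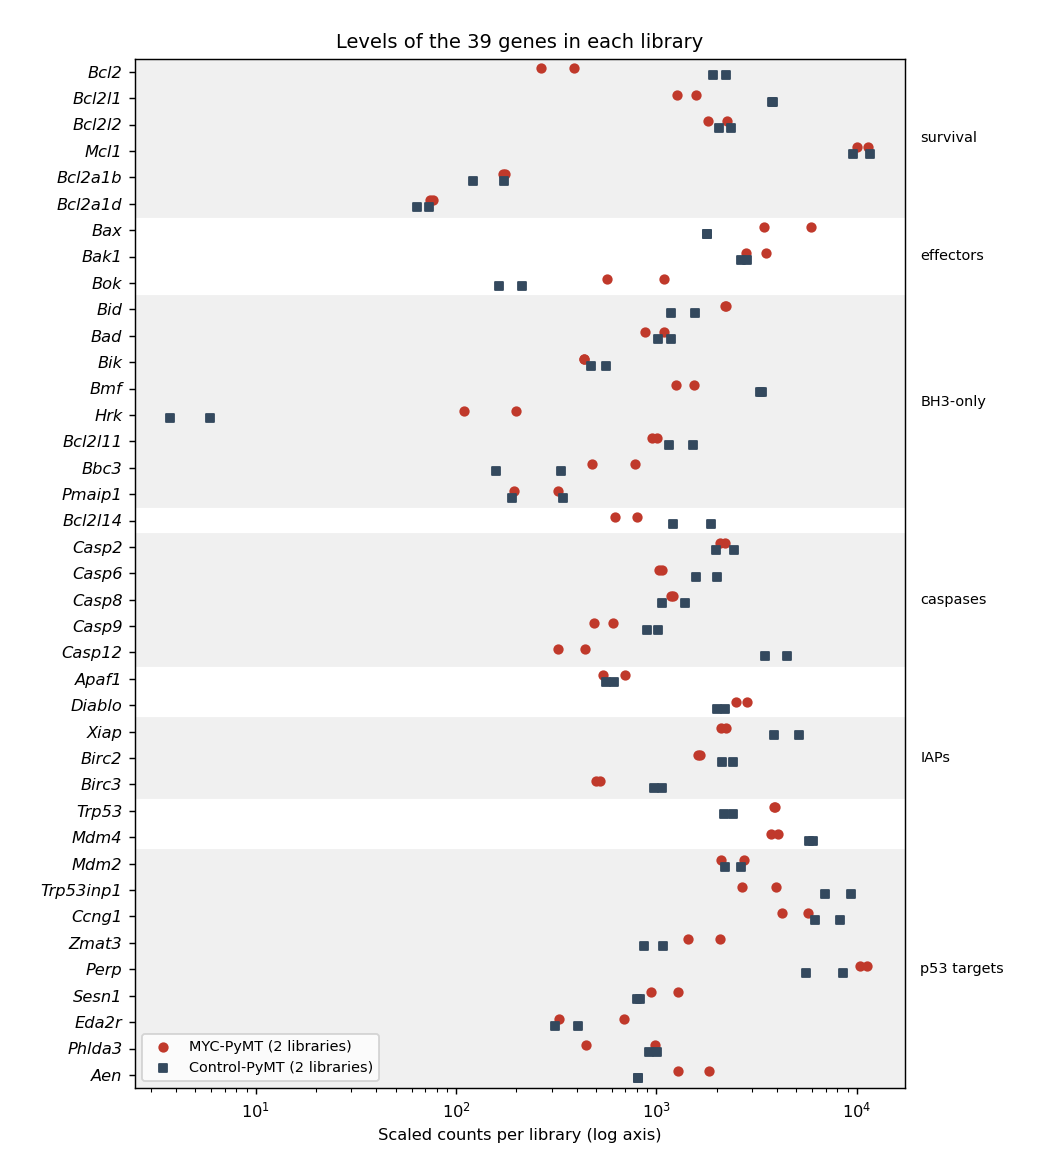
Scaled counts of the 39 genes on a log axis, each point 1 library, with MYC-PyMT as circles above Control-PyMT as squares in each row; bands separate the classes, and the unlabelled bands hold Bcl2l14, then Apaf1 and Diablo, then Trp53 and Mdm4. Hrk, Bok and Bax lie to the right in MYC-PyMT and Casp12, Bcl2 and Bcl2l1 to the left, without overlap, whereas Mcl1 and Mdm2 overlap.

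Bcl2, the founding survival gene (ENSMUSG00000057329.7, chromosome 1, 106538178 to 106714274, minus strand, GRCm38), had 265 and 387 scaled counts in MYC-PyMT (replicate 1, then replicate 2), against 2233 and 1924 in Control-PyMT. Both MYC-PyMT libraries lay far below both Control-PyMT libraries, and the mean was 6.38-fold lower (log2 change -2.69, SE 0.24, limma adjusted p = 3.27e-05). Bcl2l1 (ENSMUSG00000007659.18, chromosome 2, 152780668 to 152831728, minus strand), which encodes BCL-XL, had 1271 and 1570.4 in MYC-PyMT and 3839.9 and 3769 in Control-PyMT. The groups were again apart, and the mean was 2.68-fold lower (log2 change -1.43, SE 0.19, limma adjusted p = 0.000279). Both falls passed the test in all 15 alternative analyses, with log2 changes between -2.96 and -2.42 for Bcl2 and between -1.58 and -1.28 for Bcl2l1.

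The other four survival genes did not pass. Mcl1, whose short-lived protein restrains BAK and is required by many cell types, had 10016 and 11425 scaled counts in MYC-PyMT and 11624 and 9537 in Control-PyMT. Its groups overlapped fully, and the 95% interval of the log2 change was -0.42 to 0.46. Bcl2l2, the gene for BCL-W, had 2242 and 1800.1 scaled counts in MYC-PyMT and 2046 and 2348 in Control-PyMT, overlapping as well, with an interval of -0.57 to 0.32. It shares 594 bases of exon on the same strand with Gm20521, so its reads may be divided. Bcl2a1b and Bcl2a1d, near-identical copies encoding the A1 protein of blood cells, summed to 246 and 253 in MYC-PyMT and 247 and 185 in Control-PyMT, with intervals of -0.41 to 0.91 and -0.58 to 0.87. A further copy outside the list, Bcl2a1a, fell (15.1 and 19.8 scaled counts in MYC-PyMT and 52.4 and 39.9 in Control-PyMT, log2 change -1.35, SE 0.41, limma adjusted p = 0.0214), a call that ended on leaving out Control-PyMT replicate 1 (-1.16, adjusted p = 0.104), Control-PyMT replicate 2 (-1.55, adjusted p = 0.0626) or MYC-PyMT replicate 1 (-1.17, adjusted p = 0.0850), and with DESeq2 on recovered reads (-1.39, adjusted p = 0.108). Reads of the copies cannot be assigned with certainty. Of 7 markers of leukocytes in general 3 fell (42.9%) and none rose, beside 24.6% lower and 23.3% higher among all tested genes. Ptprc, the gene for CD45, was among those that fell, at 538 and 656 scaled counts in MYC-PyMT and 1334 and 1209.5 in Control-PyMT. The 7 summed to 21053 and 21776 in MYC-PyMT and 23588.5 and 22179 in Control-PyMT. Most of this was Lcp1, which did not pass, at 15622 and 15361 in MYC-PyMT and 12558 and 11383 in Control-PyMT.

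Among the effectors, Bax (ENSMUSG00000003873.10, chromosome 7, 45461697 to 45466898, minus strand) had 3439 and 5900.2 scaled counts in MYC-PyMT (replicate 1, then replicate 2), against 1781 and 1794 in Control-PyMT. Control-PyMT libraries were nearly equal, whereas MYC-PyMT replicate 2 was 1.72 times replicate 1. Bax rose 2.61-fold (log2 change 1.33, SE 0.25, limma adjusted p = 0.00184), though not past the threshold on leaving out Control-PyMT replicate 1 (1.33, adjusted p = 0.0657) or Control-PyMT replicate 2 (1.34, adjusted p = 0.0678). Bok (ENSMUSG00000026278.14, chromosome 1, 93685660 to 93695764), a relative of Bax whose protein can act without BH3-only activators, had 568 and 1095 in MYC-PyMT and 212 and 164 in Control-PyMT. It rose 4.42-fold (log2 change 2.07, SE 0.32, limma adjusted p = 0.000663), with MYC-PyMT replicate 2 again the higher, and missed the threshold on leaving out Control-PyMT replicate 2 (1.89, adjusted p = 0.0537). Bak1, the gene for BAK, had 2799 and 3543 scaled counts in MYC-PyMT and 2638 and 2841 in Control-PyMT. These overlapped, and the interval of its log2 change was -0.23 to 0.63.

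BH3-only genes moved in both directions. Hrk (harakiri, ENSMUSG00000046607.6, chromosome 5, 118164648 to 118189478), best known from neurons, had 109.7 and 200.01 scaled counts in MYC-PyMT and 3.74 and 5.95 in Control-PyMT, the Control-PyMT values being 4 and 7 reads. It rose 31.97-fold (log2 change 4.70, SE 0.46, limma adjusted p = 5.29e-05), and it passed in all 15 alternatives, with log2 changes between 3.97 and 5.13. Per kb of exon it nevertheless remained the lowest of the 11 death genes in MYC-PyMT, at 27.3 scaled counts per kb on average. Bbc3, the gene for PUMA, which p53 induces, had 478 and 779 in MYC-PyMT and 159 and 336 in Control-PyMT (log2 change 1.40, SE 0.37, limma adjusted p = 0.0112). The groups did not overlap, but Control-PyMT replicate 2 was 2.11 times replicate 1, and the call ended on leaving out Control-PyMT replicate 1 (0.86, adjusted p = 0.148). Bid, which caspase 8 cuts to link death receptors to mitochondria, had 2228 and 2201 in MYC-PyMT and 1566 and 1186 in Control-PyMT (log2 change 0.70, SE 0.20, limma adjusted p = 0.0170). Its call ended on leaving out Control-PyMT replicate 2 (0.50, adjusted p = 0.0682), MYC-PyMT replicate 1 (0.69, adjusted p = 0.0794) or MYC-PyMT replicate 2 (0.71, adjusted p = 0.0769). Bid also shares 628 bases with Bcl2l13 on the opposite strand, and the authors' strand setting is not given in the sources used here.

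The BH3-only gene that fell was Bmf, whose protein is held at the cytoskeleton and takes part in the death of detached cells. Bmf had 1539.7 and 1258 scaled counts in MYC-PyMT and 3356 and 3276 in Control-PyMT, a 2.37-fold difference without overlap (log2 change -1.25, SE 0.19, limma adjusted p = 0.000576) that passed in all 15 alternatives. Bcl2l11, the gene for BIM, which binds every survival protein, had 1011 and 947 scaled counts in MYC-PyMT and 1155 and 1517 in Control-PyMT. The MYC-PyMT libraries were both lower, but the change did not pass (log2 change -0.44, SE 0.21, limma adjusted p = 0.113). Pmaip1, the gene for the MCL1 antagonist NOXA and another p53 target, had 195 and 324 scaled counts in MYC-PyMT and 340.4 and 191 in Control-PyMT. The spread within each group exceeded the difference between them, and the interval ran from -0.80 to 0.76. Bad, whose protein is switched off by survival kinases, and Bik, which acts at the endoplasmic reticulum, did not pass either, with intervals of -0.63 to 0.30 and -0.75 to 0.25. Bcl2l14 had 804 and 623 scaled counts in MYC-PyMT and 1867 and 1212 in Control-PyMT and fell (log2 change -1.09, SE 0.25, limma adjusted p = 0.00583), a call that ended on leaving out Control-PyMT replicate 1 (-0.78, adjusted p = 0.0747).

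**Figure D2:**
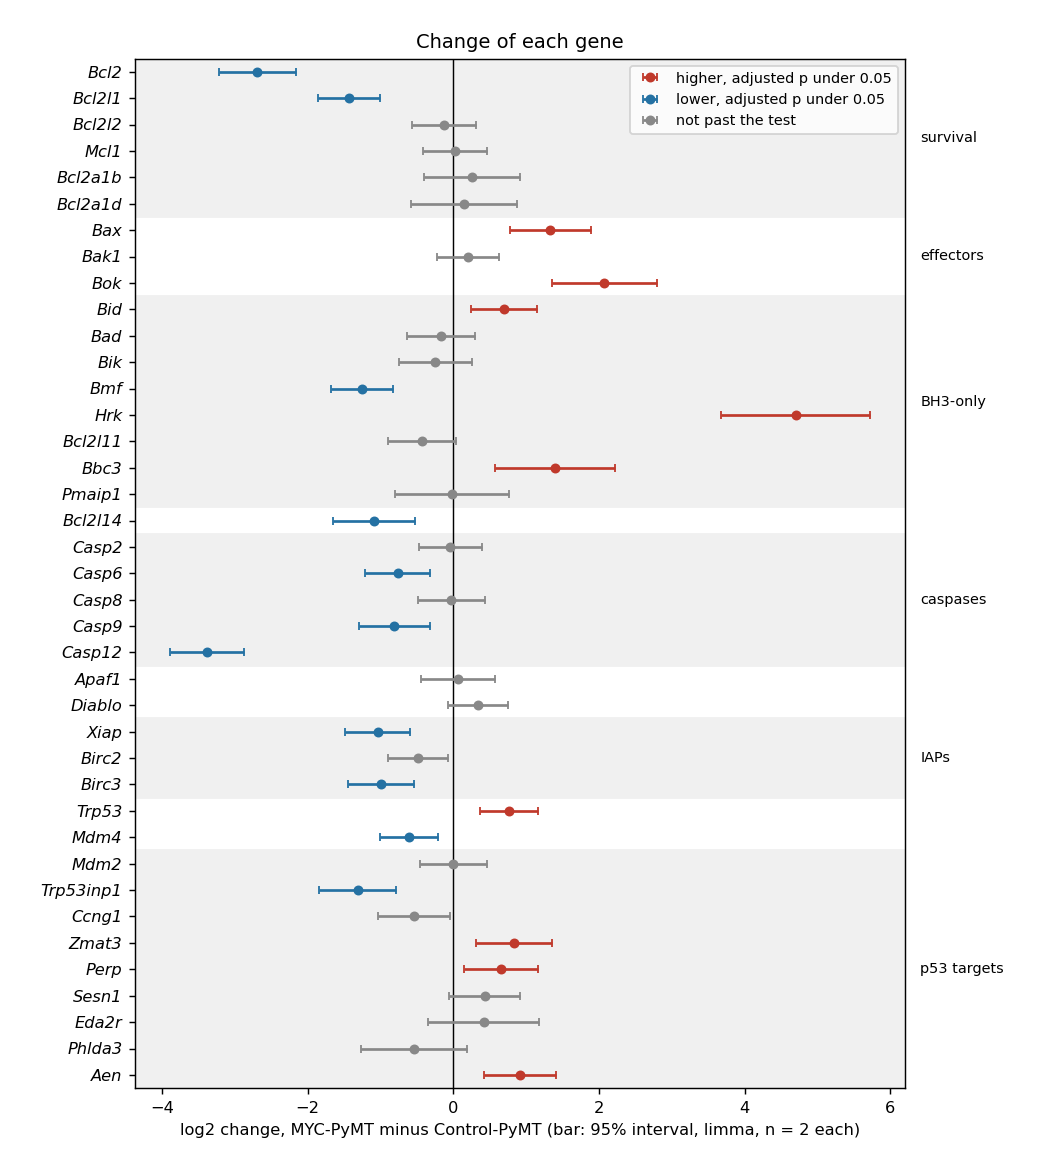
Change of each gene on the log2 scale, MYC-PyMT minus Control-PyMT, with 95% intervals from limma (n = 2 libraries each); bands are the same classes as in the plot of levels. Hrk stands at 4.70 and Casp12 at -3.38, and the survival genes other than Bcl2 and Bcl2l1 lie at intervals that cross 0.

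To set levels of different genes side by side, scaled counts were divided by the length of each gene's merged exons. That length counts exons no transcript in these tumours may use, so the shares are approximate. Mcl1 was the most abundant survival gene per kb in every library, at 72.6% and 75.4% of the summed survival signal in MYC-PyMT and 64.9% and 61.0% in Control-PyMT. Bcl2l1 made up 6.87% and 7.72% in MYC-PyMT and 16.0% and 18.0% in Control-PyMT, and Bcl2 0.716% and 0.953% in MYC-PyMT and 4.66% and 4.60% in Control-PyMT. The survival sum itself was 4035 and 4435 scaled counts per kb in MYC-PyMT and 5238 and 4571 in Control-PyMT, a gap hardly larger than that between the Control-PyMT libraries. Death genes summed to 5630.4 and 8008 per kb in MYC-PyMT and to 4462 and 4597 in Control-PyMT. Bax alone was 38.8% and 46.8% of the death sum in MYC-PyMT and 25.3% and 24.8% in Control-PyMT, where Bak1 stood at a similar level, 24.6% and 25.7%. The ratio of death to survival sums was 1.40 and 1.81 in MYC-PyMT and 0.852 and 1.01 in Control-PyMT. Per kb, Bax exceeded Bcl2 75.5 and 88.6 times in MYC-PyMT and 4.63 and 5.42 times in Control-PyMT, and Bcl2l1 7.87 and 10.9 times in MYC-PyMT and 1.35 and 1.38 times in Control-PyMT. These ratios describe the libraries and were not tested. Over all tested genes the log2 change ran weakly with exon length (Spearman's rho -0.18, shorter genes higher in MYC-PyMT, a correlation across genes of the same libraries). Merged exons span 1576 bases in Bax, 4586 in Bcl2l1 and 9157 in Bcl2. The part of length in the ratios was not tested.

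**Figure D3:**
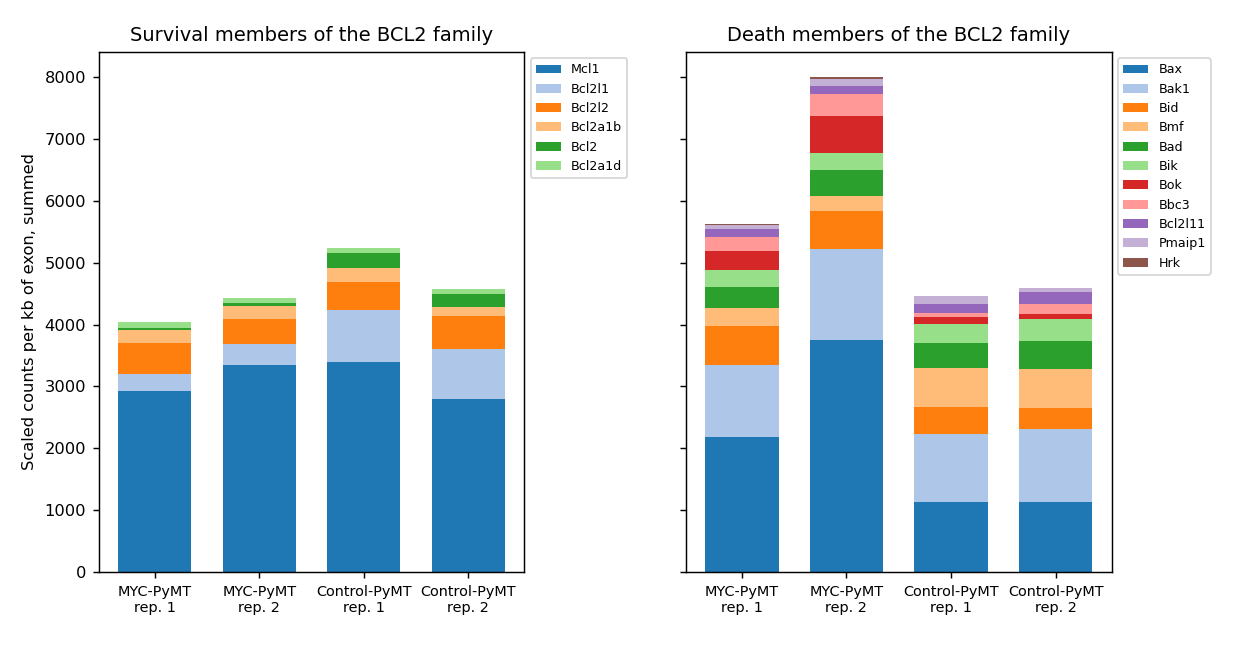
Summed scaled counts per kb of exon of the 6 survival genes (left) and 11 death genes (right) of the BCL2 family, 1 stacked bar per library with MYC-PyMT to the left. Death genes reach 5630.4 and 8008 in MYC-PyMT and 4462 and 4597 in Control-PyMT, the added height being mostly Bax.

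The largest fall on the list was that of Casp12 (ENSMUSG00000025887.10, chromosome 9, 5345430 to 5373032), a mouse caspase of the endoplasmic reticulum that belongs to the inflammatory group of caspases. It had 324 and 441 scaled counts in MYC-PyMT and 4470.2 and 3484 in Control-PyMT. The mean was 10.4-fold lower (log2 change -3.38, SE 0.23, limma adjusted p = 9.09e-06), with log2 changes between -3.60 and -3.16 over the 15 alternatives, all past the test. Casp1 and Casp4, inflammatory caspases that lie in the same cluster on chromosome 9, fell too, with 472 and 555 scaled counts in MYC-PyMT and 3197 and 2464 in Control-PyMT for Casp1 and 138 and 208 scaled counts in MYC-PyMT and 744 and 629 in Control-PyMT for Casp4. Their log2 changes were -2.45 (SE 0.21) and -2.01 (SE 0.27).

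Apoptotic caspases changed less. Casp9, the initiator activated by the apoptosome, had 609.9 and 486 scaled counts in MYC-PyMT and 899 and 1018 in Control-PyMT (log2 change -0.81, SE 0.22, limma adjusted p = 0.0122). Casp6, an executioner that cuts lamins, had 1028 and 1067 scaled counts in MYC-PyMT and 1998 and 1579.8 in Control-PyMT (log2 change -0.76, SE 0.20, limma adjusted p = 0.0110). In both cases all MYC-PyMT values were below all Control-PyMT values. The Casp9 call ended on leaving out Control-PyMT replicate 1 (-0.90, adjusted p = 0.0542), Control-PyMT replicate 2 (-0.72, adjusted p = 0.0880) or MYC-PyMT replicate 2 (-0.65, adjusted p = 0.132), and the Casp6 call on leaving out Control-PyMT replicate 1 (-0.59, adjusted p = 0.0559) or MYC-PyMT replicate 1 (-0.73, adjusted p = 0.0614). Casp8, the initiator at death receptors, had 1213 and 1182 scaled counts in MYC-PyMT and 1394 and 1072 in Control-PyMT, and Casp2, the initiator of the PIDDosome, had 2201 and 2077 scaled counts in MYC-PyMT and 2438 and 1981 in Control-PyMT. Both overlapped between groups, with intervals of -0.49 to 0.43 and -0.47 to 0.39. Apaf1, the scaffold of the apoptosome, had 539 and 699 scaled counts in MYC-PyMT and 617 and 559.7 in Control-PyMT, also overlapping (interval -0.44 to 0.57). Diablo, which relieves IAP inhibition of caspases, had 2832 and 2494 scaled counts in MYC-PyMT and 2204 and 2010.5 in Control-PyMT. Its MYC-PyMT values were the higher ones, but the change did not pass (log2 change 0.34, SE 0.18, limma adjusted p = 0.159), and Diablo shares 1193 bases on the same strand with Gm49027.

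All IAP genes of the list had lower values in MYC-PyMT, and 2 of the 3 passed. Xiap, whose protein binds and blocks caspases directly, had 2113 and 2222 scaled counts in MYC-PyMT and 5127 and 3866 in Control-PyMT (log2 change -1.04, SE 0.20, limma adjusted p = 0.00210). Birc3, the gene for cIAP2 and a target of NF-kB, had 521 and 501 in MYC-PyMT and 1066 and 973 in Control-PyMT (log2 change -0.99, SE 0.20, limma adjusted p = 0.00307). Both passed in all 15 alternatives. Birc2, its neighbour on chromosome 9 and the gene for cIAP1, had 1649 and 1608 scaled counts in MYC-PyMT and 2422 and 2131 in Control-PyMT and stood just outside the threshold (log2 change -0.48, SE 0.18, limma adjusted p = 0.0543). It passed with TMM scaling (-0.50, adjusted p = 0.0351), upper-quartile scaling (-0.58, adjusted p = 0.0225) or edgeR on recovered reads (-0.51, adjusted p = 0.0330).

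Trp53 (ENSMUSG00000059552.13, chromosome 11, 69580359 to 69591873), the gene for p53, had 3874 and 3889 scaled counts in MYC-PyMT and 2186 and 2401 in Control-PyMT. The MYC-PyMT libraries were nearly equal, and the mean was 1.69-fold higher (log2 change 0.76, SE 0.18, limma adjusted p = 0.00622), though not past the threshold on leaving out MYC-PyMT replicate 2 (0.76, adjusted p = 0.0525). Mdm4, whose protein binds p53 and silences its activation domain, had 4030.5 and 3735 in MYC-PyMT and 6044 and 5766 in Control-PyMT (log2 change -0.61, SE 0.18, limma adjusted p = 0.0181). With merged exons of 14798 bases it was the longest gene of the list, and the call was lost when each library's trend with exon length was removed (log2 change -0.21, adjusted p = 0.348). It was also lost on leaving out Control-PyMT replicate 1 (-0.57, adjusted p = 0.0515), MYC-PyMT replicate 1 (-0.66, adjusted p = 0.0958) or MYC-PyMT replicate 2 (-0.55, adjusted p = 0.184). Mdm2, the ubiquitin ligase that degrades p53 and is itself induced by p53, had 2112 and 2749.6 scaled counts in MYC-PyMT and 2641 and 2208 in Control-PyMT. These overlapped, with the interval of the log2 change from -0.46 to 0.46.

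The 9 p53 targets did not all move one way. Aen, an exonuclease gene named for enhancing apoptosis, had 1283 and 1822 scaled counts in MYC-PyMT and 807 and 809 in Control-PyMT (log2 change 0.92, SE 0.22, limma adjusted p = 0.00710). Zmat3, which encodes an RNA-binding zinc finger protein, had 1438 and 2089 in MYC-PyMT and 867 and 1084 in Control-PyMT (log2 change 0.84, SE 0.23, limma adjusted p = 0.0145). Perp, a membrane protein of desmosomes and the most abundant of the 9 per kb, had 10378 and 11259 in MYC-PyMT and 8525 and 5554 in Control-PyMT (log2 change 0.65, SE 0.23, limma adjusted p = 0.0385). In these 3 genes every MYC-PyMT value was above every Control-PyMT value, but each call depended on single libraries. The Aen call ended on leaving out Control-PyMT replicate 1 (0.92, adjusted p = 0.0728), Control-PyMT replicate 2 (0.92, adjusted p = 0.0756) or MYC-PyMT replicate 2 (0.67, adjusted p = 0.115). The Zmat3 call ended on leaving out Control-PyMT replicate 1 (0.68, adjusted p = 0.139), Control-PyMT replicate 2 (1.00, adjusted p = 0.0700) or MYC-PyMT replicate 2 (0.57, adjusted p = 0.182). The Perp call ended on leaving out Control-PyMT replicate 2 (0.34, adjusted p = 0.152), MYC-PyMT replicate 1 (0.71, adjusted p = 0.0803) or MYC-PyMT replicate 2 (0.59, adjusted p = 0.158), and also with upper-quartile scaling (0.55, adjusted p = 0.0671), no variance trend (0.65, adjusted p = 0.112) or transcript length trend removed (0.48, adjusted p = 0.110).

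Trp53inp1, a stress protein that partners p53, went the other way, with 2669.9 and 3942 scaled counts in MYC-PyMT and 9355 and 6976 in Control-PyMT (log2 change -1.32, SE 0.24, limma adjusted p = 0.00150). The groups did not overlap, and the call ended on leaving out Control-PyMT replicate 1 (-1.10, adjusted p = 0.0555). Ccng1, the gene for cyclin G1, had 4232 and 5704 scaled counts in MYC-PyMT and 8239 and 6181 in Control-PyMT and did not pass (log2 change -0.54, SE 0.22, limma adjusted p = 0.0694), although it did with upper-quartile scaling (-0.64, adjusted p = 0.0348). Sesn1, a sestrin that restrains mTORC1, had 1275 and 945 scaled counts in MYC-PyMT and 830.5 and 798 in Control-PyMT, with an interval of -0.05 to 0.92. Phlda3, which competes with AKT for membrane lipids, had 447 and 980.3 scaled counts in MYC-PyMT and 923 and 1003 in Control-PyMT, so that MYC-PyMT replicate 2 lay among the Control-PyMT values and replicate 1 far below them. Phlda3 was past the test on leaving out MYC-PyMT replicate 2 (-1.10, adjusted p = 0.00623). Eda2r, a receptor of ectodysplasin A2, had 328 and 691 scaled counts in MYC-PyMT and 407 and 312 in Control-PyMT, where MYC-PyMT replicate 2 stood above the other 3 libraries. It was past the test on leaving out MYC-PyMT replicate 1 (0.95, adjusted p = 0.0292).

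Within MYC-PyMT the p53 targets differed between the 2 libraries in a common direction. In 8 of the 9, Sesn1 being the exception, replicate 2 was higher than replicate 1, at a median ratio of 1.42, beside a median of 1.01 over all tested genes, 51.9% of which were higher in replicate 2. Phlda3, Eda2r and Zmat3 had ratios of 2.19, 2.11 and 1.45. Among the 11 death genes 8 were higher in replicate 2 and 5 of them by more than 1.5 times, namely Bok (1.93), Hrk (1.82), Bax (1.72), Pmaip1 (1.66) and Bbc3 (1.63). In Control-PyMT 7 of the 11 death genes were higher in replicate 2, 2 of them by more than 1.5 times. Of the 6 survival genes 5 were higher in MYC-PyMT replicate 2, and of the 10 caspases and regulators 4. Within MYC-PyMT, ratios above 1.5 were found for 7 of the 39 genes, or 17.9%, and for 8.9% of all tested genes. Among 18 further p53 targets outside the list, 15 were higher in MYC-PyMT replicate 2, with Cdkn1a, the cell cycle inhibitor p21, at 1235 and 2348 scaled counts in replicates 1 and 2. Together that is 23 of 27 targets, or 85.2%. In Control-PyMT 10 of these 27, or 37.0%, were higher in replicate 2, beside 44.1% of all tested genes. The ratio between MYC-PyMT libraries also ran weakly with exon length over all genes (Spearman's rho -0.14, shorter genes higher in replicate 2, a correlation across genes of the same libraries). Markers of several cell types also differed between the MYC-PyMT libraries. Higher in replicate 2 were 6 of 8 basal markers (median ratio 1.87), such as Krt14 at 4828 and 13476 scaled counts in replicates 1 and 2, 8 of 8 fibroblast markers (1.25), 7 of 8 endothelial markers (1.14), 5 of 7 general leukocyte markers (1.22) and 5 of 9 keratinocyte and hair markers, but none of 5 B and plasma cell markers (0.503). The part of length and of these cell types in this difference was not tested.

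**Figure D4:**
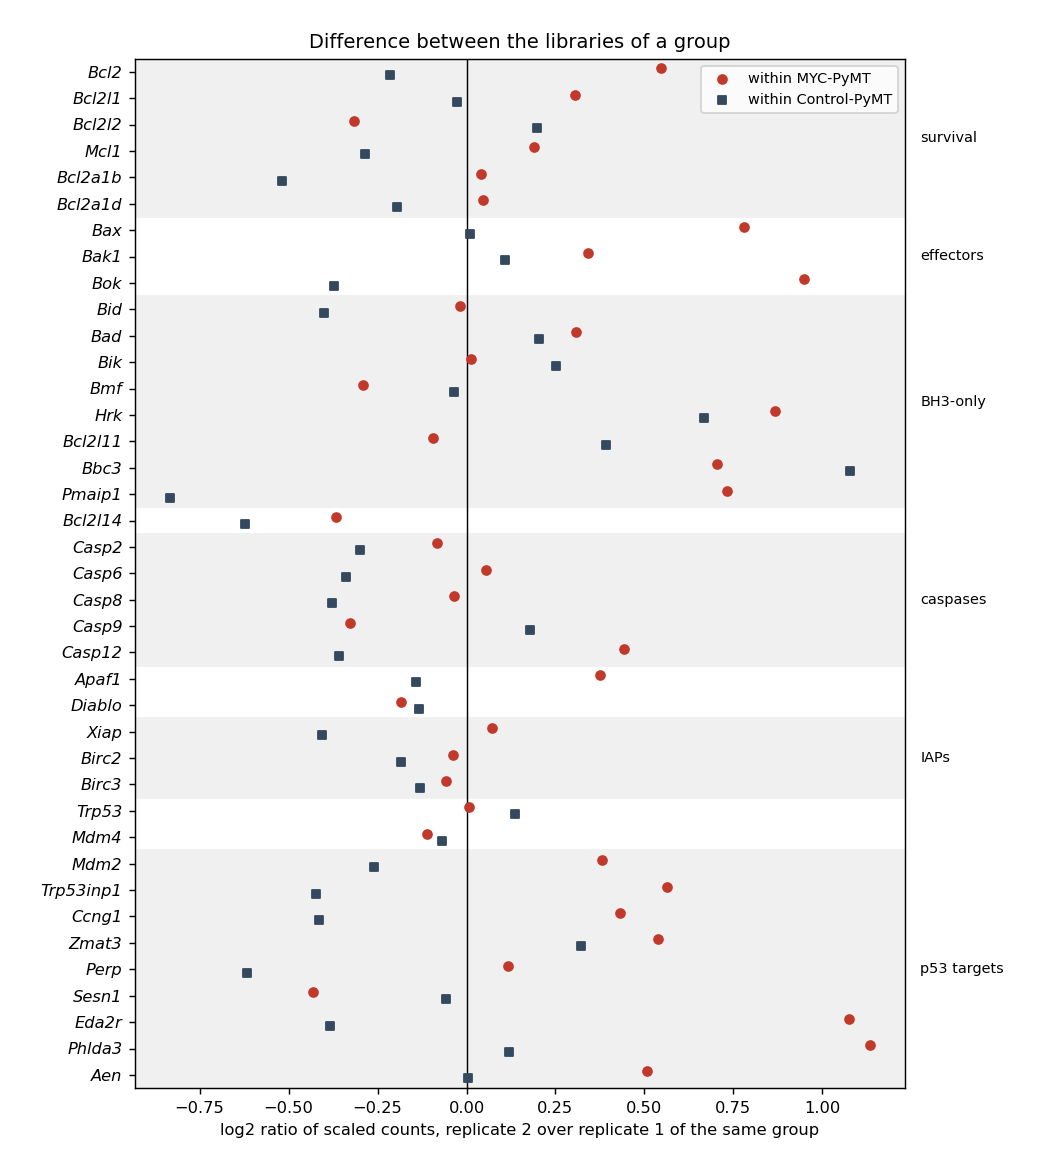
log2 ratio of replicate 2 over replicate 1 within MYC-PyMT (circles) and within Control-PyMT (squares) for the 39 genes, in the class bands of the plot of levels. Among the p53 targets 8 of 9 circles and 3 of 9 squares lie to the right of 0.

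Promoter sequence was read for an E-box, since MYC is the transgene, and for the p53 decamer, since the list holds p53 targets. RefSeq start sites (GRCm38.p6, 250 bases before to 50 after each start) were at hand for 34 of the 39 genes, not for Bik, Perp, Pmaip1, Trp53inp1 and Zmat3. The E-box CACGTG, which MYC and MAX bind and which reads the same on both strands, was found in 5 of the 34 genes, beside 8.09% of 27025 genes with such windows. These 5 were Trp53, Bax, Bbc3, Aen and Eda2r, of which the first 4 rose. The other 3 of the 7 rising genes with windows, Hrk, Bok and Bid, had none, nor had the 10 with windows that fell. These genes were known to have changed when the windows were read, so the counts are a description. The 27025 genes include untested ones. They had 32851 windows, while the 34 genes had 49, so 5 of 34 and 8.09% are not a like comparison. Among tested genes with windows, 31% of 1279 genes with an E-box rose and 17.7% fell, and 23% of the 10284 genes without one rose and 25.4% fell. In Trp53 and Eda2r it lay just after the start, as did a further E-box of Bax. The E-boxes of the list that lie before a start are shown, on the strand of the gene with CACGTG in capitals.
Bax (chr7:45466899-45466917, minus strand): cgatgatgatCACGTGact
Bbc3 (chr7:16310357-16310382, plus strand): ggggcgggcgCACGTGgcggcgtcga
Aen (chr7:78895969-78895994, plus strand): gcaagggttcCACGTGaaacctggga

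The p53 consensus decamer, of which p53 binds a tandem pair, occurred in 8 of the 34 genes, beside 9.55% of all genes with windows. It was found in Bax, Aen and Trp53, which rose, in Bmf, which fell, and in Mdm2, Ccng1, Sesn1 and Birc2, which did not pass. Among tested genes with windows, 20.8% of 970 genes with a decamer rose and 28.1% fell, and 24.1% of the 10593 genes without one rose and 24.2% fell. A pair of decamers separated by at most 13 bases was in none of the 34 and in 20 of 27025 genes (0.074%). A pair this rare would hardly be met in 34 genes, so its absence says nothing about them. Sequence outside the windows was not read. The decamer was matched without mismatch, and its pattern is its own reverse complement, so both strands were covered. Matches in p53 targets are shown with the decamer in capitals, to set the target genes that rose (Bax, Aen) beside those that did not pass (Mdm2, Ccng1, Sesn1).
Bax (chr7:45467080-45467109, minus strand): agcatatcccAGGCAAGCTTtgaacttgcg
Aen (chr7:78895927-78895956, plus strand): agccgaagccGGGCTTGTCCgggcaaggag
Mdm2 (chr10:117710925-117710954, minus strand): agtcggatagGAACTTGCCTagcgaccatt
Ccng1 (chr11:40755452-40755481, minus strand): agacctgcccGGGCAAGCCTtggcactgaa
Sesn1 (chr10:41887256-41887285, plus strand): cttggccttcAAGCTTGTTTttgctggcct
A match is a description of the letters in these windows, not of binding.

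Other genes of the same pathways, 66 in 6 lists, gave 22 that rose (33.8%) and 12 that fell (18.5%) among 65 tested. Beside these and the list counts that follow stand the shares of all tested genes, 23.3% higher and 24.6% lower. Of 11 tested genes for death receptors, their ligands and adaptors none rose and 4 fell (36.4%), with Fas the only receptor gene among them. The receptor genes Tnfrsf1a, Tnfrsf1b and Tnfrsf10b did not pass. Tnfsf10, the gene for the death ligand TRAIL, had 255 and 329.7 scaled counts in MYC-PyMT and 2190.2 and 1559 in Control-PyMT (log2 change -2.67, SE 0.24). Fas, the receptor of FAS ligand and a p53 target, had 182 and 160.4 scaled counts in MYC-PyMT and 596 and 496 in Control-PyMT (-1.66, SE 0.25), and Cflar, the inhibitor of caspase 8, had 1715 and 1352 scaled counts in MYC-PyMT and 3609.9 and 3671 in Control-PyMT (-1.26, SE 0.19). For Tnfsf10, Fas and Cflar the groups did not overlap. Among 12 caspase and execution genes 6 rose (50%) and 2, Casp1 and Casp4, fell (16.7%). Htra2, a mitochondrial protease that antagonises IAPs, had 4481 and 3462 scaled counts in MYC-PyMT and 1215 and 1245 in Control-PyMT, Parp1, a caspase substrate and DNA repair enzyme, had 7159 and 6496 scaled counts in MYC-PyMT and 2882 and 2895 in Control-PyMT, and Cycs, cytochrome c, had 4765 and 6149 scaled counts in MYC-PyMT and 2079 and 1472 in Control-PyMT.

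Of 8 further inhibitors 3 rose and 3 fell (37.5% each). Birc5, the mitotic IAP survivin, had 5235 and 5499 scaled counts in MYC-PyMT and 1508 and 1219 in Control-PyMT (log2 change 1.98, SE 0.19, limma adjusted p = 4.96e-05). Bag1 and Bag4, co-chaperones of HSP70, rose as well (0.60 and 0.61 on the log2 scale). The Bag1 call ended on leaving out Control-PyMT replicate 2 (0.45, adjusted p = 0.0912), MYC-PyMT replicate 1 (0.67, adjusted p = 0.0929) or MYC-PyMT replicate 2 (0.53, adjusted p = 0.206), and with no variance trend (0.60, adjusted p = 0.0805) or transcript length trend removed (0.31, adjusted p = 0.199). The Bag4 call ended on leaving out Control-PyMT replicate 2 (0.40, adjusted p = 0.121), MYC-PyMT replicate 1 (0.64, adjusted p = 0.117) or MYC-PyMT replicate 2 (0.58, adjusted p = 0.170), and with upper-quartile scaling (0.51, adjusted p = 0.0672) or no variance trend (0.61, adjusted p = 0.0901). Xaf1, an interferon-induced antagonist of XIAP, had 188 and 196 scaled counts in MYC-PyMT and 1319 and 1215 in Control-PyMT (-2.72), and the cytosolic sensors Naip2 and Naip5 also fell (-1.57 and -1.73), the Naip2 call ending on leaving out Control-PyMT replicate 1 (-1.33, adjusted p = 0.0722). Among the 18 further p53 targets 6 rose (33.3%) and 2 fell (11.1%), at a median of -0.09. Gdf15, a secreted stress cytokine, had 109.7 and 229 scaled counts in MYC-PyMT and 8.42 and 13.6 in Control-PyMT (log2 change 3.77, SE 0.45, limma adjusted p = 0.000167), Tigar, a fructose bisphosphatase, had 757 and 829.7 scaled counts in MYC-PyMT and 330.1 and 292 in Control-PyMT, and Rps27l, a ribosomal protein homologue, had 13218 and 13778 scaled counts in MYC-PyMT and 7466 and 5499 in Control-PyMT. Plk2, a polo-like kinase, had 966 and 1233 scaled counts in MYC-PyMT and 4529 and 3437 in Control-PyMT and Ephx1, an epoxide hydrolase, had 1480.4 and 1979 scaled counts in MYC-PyMT and 3134 and 3585 in Control-PyMT, the 2 that fell, and the Ephx1 call ended on leaving out Control-PyMT replicate 2 (-0.87, adjusted p = 0.0626). Cdkn1a did not pass (log2 change -0.44, SE 0.28), its Control-PyMT values being 2221 and 2408, but it was past the test on leaving out MYC-PyMT replicate 2 (-0.90, adjusted p = 0.0186).

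Of 10 genes that control p53, 6 rose (60%) and none fell. Chek1, a kinase of the replication checkpoint, had 1459 and 1408 scaled counts in MYC-PyMT and 528 and 424 in Control-PyMT (1.60 on the log2 scale), and Rpl11 and Rpl5, ribosomal proteins that can bind MDM2, had log2 changes of 1.40 and 1.38. Cdkn2a, whose ARF product blocks MDM2, had 149.9 and 307 scaled counts in MYC-PyMT and 191 and 226 in Control-PyMT, which overlapped and did not pass (interval -0.73 to 0.83). Of 6 tested genes in the rest of the BCL2 family, Bnip3, a mitophagy receptor, rose (2185 and 4578 scaled counts in MYC-PyMT and 1990.1 and 1075 in Control-PyMT, log2 change 1.11) and Bcl2a1a fell. The Bnip3 call ended on leaving out Control-PyMT replicate 1 (1.56, adjusted p = 0.0843), Control-PyMT replicate 2 (0.67, adjusted p = 0.346) or MYC-PyMT replicate 2 (0.58, adjusted p = 0.161), and with no variance trend (1.11, adjusted p = 0.110).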

How the data were processed

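Poly(A)-selected libraries were prepared with a strand-specific kit from 500 ng of total RNA with 8 PCR cycles, per the labels' protocols, which give RNA integrity numbers of 3.3 to 9.6 without tying them to libraries. Per the submitters' processing notes, HISAT2, DESeq2, mm10 and GRCm38.p5 were used. Which program counted reads, on which strand and with which annotation is not given in the sources used here. The authors deposited scaled counts, a signal per gene equal to whole read counts divided by 1 factor per library. All values (100%) were whole multiples of that step within 0.001 reads, so reads were recovered for the alternatives. Coordinates and merged exon lengths came from GENCODE mouse release 21, which matched 20463 gene IDs.

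Values were tested with limma 3.58.1 (R 4.3.3) on log2(value + 1) with a variance trend, two-sided, over genes with at least 10 in at least 2 libraries, and were described per class with no test over the list. Alternatives were pseudocounts of 0.5 and 5, no filter or one of 50, TMM or upper-quartile scaling, a fit with no variance trend, replicate numbers entered as a block, each library left out (the lone library is then assumed to vary like the other group), removal of the exon length trend, and edgeR 4.0.16 and DESeq2 1.42.0 on recovered reads. An exact permutation test of 2 against 2 libraries cannot go below p = 0.33, and none was used. The procedure was tested on simulated counts. All 39 genes are accounted for; of each pathway list up to 3 genes past the test with the smallest p in each direction were named, and other genes were picked with their values in view. The 39 genes and all lists were chosen with earlier results of these data known. Bcl2l10, Bcl2a1c, Cop1 and Mpo were not analysed here. Some genes of the pathway lists are counted but not reported singly here.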

Additional observations from a re-analysis of the deposited data

How the results depend on the processing

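None of the 20 called genes changed direction in any of the 15 alternatives. For most alternatives this could not have come out otherwise. The groups did not overlap for any of the 20, so leaving out a library or changing the pseudocount could not turn a sign. The filters, the replicate block and the fit with no variance trend leave each log2 change as it was. Of the 20 genes, 7 (Bcl2, Bcl2l1, Bmf, Hrk, Casp12, Xiap and Birc3) passed in all. Leaving out 1 library gave 3 to 8 genes of the list that rose and 6 to 10 that fell, and over all genes 5236 to 6480 past the test, 2573 to 3433 of them lower (fewest without Control-PyMT replicate 2). Class medians then ran from -0.08 to -0.02 (survival), 0.032 to 0.40 (death), -0.65 to -0.49 (caspases and regulators) and -0.12 to 0.46 (p53 targets). The value of -0.12 without MYC-PyMT replicate 2 is the median whose sign turned, and the cause was not tested. Without the variance trend 5 genes rose, the calls of Bid (adjusted p = 0.0607), Bbc3 (0.0518), Mdm4 (0.0615), Zmat3 (0.0590) and Perp (0.112) being lost. With the exon length trend removed the survival median was -0.27. Upper-quartile scaling moved the median of all genes by -0.10. Replicate numbers 1 and 2 were tried as a block. Deviations of same-numbered libraries correlated at -0.09 across genes. With 2 libraries per group this value cannot settle whether the numbers pair the samples. Under the replicate block 9 genes of the list rose and 11 fell, and 8039 of all genes passed. The class medians of -0.05, 0.20, -0.62 and 0.42 could not change under this block, because each group holds both replicate numbers. edgeR called 7925 genes and DESeq2 7293. Depth limits Hrk alone, at 4 and 7 reads in Control-PyMT.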
